A study of Mus musculus with 6 samples.

Results

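The gene set described here consists of the hyaluronan receptor gene Lyve1 and 9 further genes that are read as marks of lymphatic or blood endothelium. It was examined for whether Lyve1 follows the lymphatic genes. The 10 genes are Lyve1, Prox1, Flt4, Pdpn, Pecam1, Kdr, Tek, Vwf, Plvap and Eng, and each was found by its symbol among the 26110 gene rows of the normalized expression table. The set was selected on the normalized values of these same libraries, with their difference between CX3CR1- and CX3CR1+ known, and no threshold was set. Its values are therefore given as a description, with no p-value, and calls from the fit over all genes are only counted beside the share of all genes called. RNA had been sequenced in bulk from MHCIIhi cells that were sorted from the muscularis externa (ME), the muscle layer of the small bowel wall. The ME came from naive, untreated CX3CR1+/GFP mice, in which 1 allele of the fractalkine receptor gene is replaced by a green fluorescent reporter. There were 3 CX3CR1- and 3 CX3CR1+ libraries, and both groups carried this genotype. The study describes pooling the ME of several mice per group and does not say whether each library had a pool of its own, so that p-values measure the spread between libraries, which may be technical. The sample labels name the cells dendritic cells, whereas the study treats them as macrophages.

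Lymphatic and blood vessels are lined by related endothelial cells. In lymphatic endothelium the transcription factor PROX1 sets and keeps the identity of the cell, VEGFR-3 (Flt4) receives the growth factors VEGF-C and VEGF-D, and LYVE1 binds hyaluronan on the cell surface. Blood endothelium relies on VEGFR-2 (Kdr) and the angiopoietin receptor TIE2 (Tek), and stores von Willebrand factor (Vwf). LYVE1 is no mark of lymphatic vessels alone, because a class of tissue macrophages that lies along blood vessels also carries it. The ME holds both kinds of vessel and many resident macrophages.

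Promoters of genes that moved in opposite directions are shown beside the levels that follow. RefSeq (GRCm38.p6) had promoter entries for 6 of the 10 genes, namely Prox1, Flt4, Pdpn, Kdr, Tek and Eng. The 250 bases before the start site are given for Tek, Kdr and Pdpn, which were higher in CX3CR1- libraries, and for the first of the start sites listed for Prox1, which was lower. Capitals mark letters that match a SOX motif (ACAAAG), a GC box (GGGCGG) or a TATA box (TATAAA) on either strand.
Tek (chr4:94739039-94739288, plus strand): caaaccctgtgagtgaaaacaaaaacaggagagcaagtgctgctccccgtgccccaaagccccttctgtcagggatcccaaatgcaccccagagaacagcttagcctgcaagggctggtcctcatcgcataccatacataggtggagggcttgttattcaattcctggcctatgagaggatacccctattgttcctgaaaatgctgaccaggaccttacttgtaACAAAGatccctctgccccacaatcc
Kdr (chr5:75978456-75978705, minus strand): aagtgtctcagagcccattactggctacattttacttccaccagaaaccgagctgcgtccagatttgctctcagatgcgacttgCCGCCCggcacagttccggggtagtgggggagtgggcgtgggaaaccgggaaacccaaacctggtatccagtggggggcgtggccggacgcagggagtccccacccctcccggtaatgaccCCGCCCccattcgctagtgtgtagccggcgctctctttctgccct
Pdpn (chr4:143299565-143299814, minus strand): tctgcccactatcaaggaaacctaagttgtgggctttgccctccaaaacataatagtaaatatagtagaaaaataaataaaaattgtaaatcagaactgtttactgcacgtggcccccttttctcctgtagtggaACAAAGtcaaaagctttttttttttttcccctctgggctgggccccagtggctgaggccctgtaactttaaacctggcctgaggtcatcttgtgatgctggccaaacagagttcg
Prox1 (chr1:190170828-190171077, minus strand): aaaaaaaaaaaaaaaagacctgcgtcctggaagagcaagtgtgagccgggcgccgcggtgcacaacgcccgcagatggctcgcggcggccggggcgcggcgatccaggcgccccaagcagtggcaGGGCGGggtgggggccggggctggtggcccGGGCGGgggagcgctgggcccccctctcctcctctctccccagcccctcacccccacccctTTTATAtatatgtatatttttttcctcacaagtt
In these windows the SOX letters began 26 bases before the start in Tek and 115 bases before it in Pdpn. Kdr held GC boxes at 166 and 45 bases before the start, both on the other strand. Prox1 held GC boxes at 125 and 95 bases and a TATA box on the other strand at 34 bases before the start. The second start site of Prox1, not shown, held SOX letters 174 bases before the start on the other strand and a GC box at 58 bases. Of the genes not shown, Eng held SOX letters at 67 bases and ETS letters at 52 and 6 bases, and Flt4 held 3 GC boxes. SOX letters thus stood in promoters of genes with either direction. No marked letters of one motif overlapped those of another. Of 32851 RefSeq promoters of the same length, 16.5% held the SOX letters, 32.7% the GC box and 12.4% the TATA box. The ETS letters AGGAAG, found in 29.5% of these promoters, and the GATA letters AGATAA, found in 9.99%, were searched on both strands as well and were in none of the windows shown. These are matches of letters and not measured binding sites.

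From the smallest step of each library, depth was estimated as 11927366, 6517536 and 11331834 reads for CX3CR1- replicates 1, 2 and 3. In the CX3CR1+ group these estimates were 17616761, 10014164 and 5346381. All levels below are normalized values, which the authors scaled between libraries and which are not read counts. In the CX3CR1- libraries 1 read was worth 1.04, 1.79 and 0.997, and in the CX3CR1+ libraries it was worth 0.463, 0.820 and 1.42. Mitochondrial genes took 47.5 to 54.9% of the summed values in CX3CR1- and 18.1 to 21.2% in CX3CR1+ libraries, and their part in the differences below was not tested. Cx3cr1 itself, the gene behind the sort, was 23.6 in CX3CR1- and 366 in CX3CR1+ libraries on average.

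Lyve1 was higher in CX3CR1- cells, and so were Flt4, Pdpn, Kdr, Tek and Vwf, whereas Prox1 was lower and Pecam1 and Eng overlapped between the groups. Of the 10 genes, 9 reached the mean of 10 that was asked for before fitting, and Plvap did not. A gene was called when it changed by 1 or more on the log2 scale in either direction, with an adjusted p no higher than 0.05 by limma with Benjamini-Hochberg adjustment over 17812 genes. By this rule 6 of the 9 were called higher and 1 lower. Among all tested genes 12.2% were called higher and 8.15% lower, 20.4% in all. The median log2 fold change was 2.02 over the 9 genes and -0.00 over all tested genes. Because the genes were chosen with this contrast known, nothing is read from these shares. Flt4, Tek and Pdpn also passed the mean of 10 only through the CX3CR1- libraries. In bulk RNA, fewer cells of a type and less RNA per cell cannot be told apart.

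**Figure D1:**
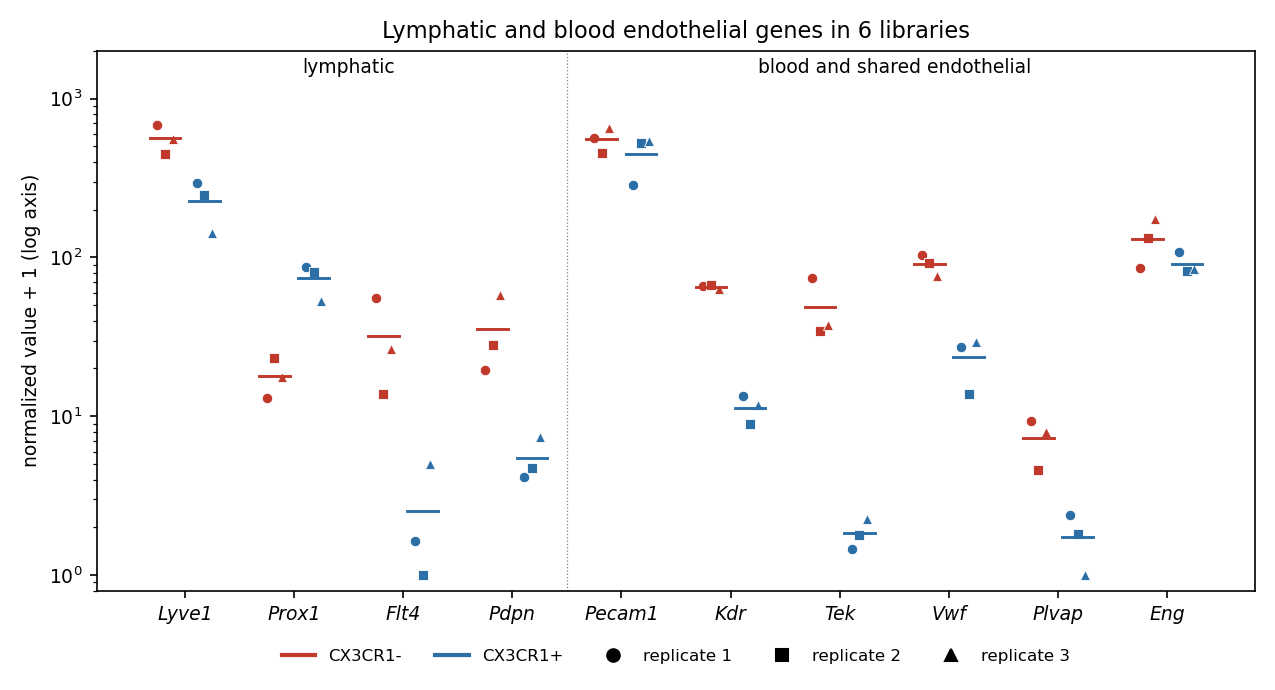
Normalized value plus 1 on a log axis of the 10 genes in the 6 libraries. Symbols are single libraries and bars are group means (n = 3). Lyve1 lies at 446 to 680 in CX3CR1- and 141 to 295 in CX3CR1+ libraries, while Prox1 is the 1 gene of the set whose CX3CR1+ libraries all lie above the CX3CR1- libraries.

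Lyve1 (GRCm38 chr7:110850607-110863239, minus strand) encodes a receptor that takes hyaluronan at the cell surface. Its values were 680, 446 and 557 in the CX3CR1- replicates 1, 2 and 3 and 295, 245 and 141 in the CX3CR1+ replicates. All CX3CR1- libraries lay above all CX3CR1+ libraries, with a smaller gap between the groups than the range within each. The means were 561 ± 117 and 227 ± 78.6 (SD, n = 3 per group), a ratio of 2.47 and a log2 fold change of 1.35 with a standard error of 0.29. Over the other settings tried the log2 fold change was 1.04 to 1.57. Lyve1 was thus present in both populations, and no library was near the limit of measurement.

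Prox1 (chr1:190118035-190170714, minus strand), the transcription factor that defines lymphatic endothelium, went the other way. It was 12.0, 22.2 and 16.8 in CX3CR1- libraries and 86.1, 79.9 and 52.1 in CX3CR1+ libraries. The groups did not overlap, and the lowest CX3CR1+ library was above the highest CX3CR1- library. The means of 17.0 ± 5.09 and 72.7 ± 18.1 (SD, n = 3 each) differed 4.27-fold, with a log2 fold change of -2.04 (standard error 0.39). Over the other settings tried it was -2.37 to -1.61. Prox1 shares exon sequence with the antisense gene Prox1os, and the library kit is not stated to keep the strand. Reads from the shared stretch therefore cannot be told apart, but only 1.23% of the 31-mers of Prox1 occur in another gene.

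Flt4 (chr11:49609263-49652739, plus strand) encodes VEGFR-3, the main receptor of lymphatic growth. It was 54.9, 12.8 and 25.5 in CX3CR1- libraries and 0.649, 0 and 3.98 in CX3CR1+ libraries. The CX3CR1+ values stood for at most about 3 reads each, and CX3CR1- replicate 1 was far above the other CX3CR1- libraries. Pooled over the libraries of a group, about 85 reads stood against 4, a ratio of 34.5 with an exact 95% interval from 12.98 to 129 that covers counting error only. The fitted log2 fold change was 3.76 (standard error 0.88), which depends on the pseudocount and was 1.71 with a pseudocount of 10. Without CX3CR1+ replicate 3 it was 4.41, and without CX3CR1- replicate 1 the gene fell under the mean of 10 and was not tested.

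Pdpn (chr4:143267431-143299564, minus strand) encodes podoplanin, a surface glycoprotein of lymphatic endothelium that also occurs on fibroblasts and mesothelium and that binds CLEC-2 (Clec1b). It was 18.7, 27.2 and 57.1 in CX3CR1- libraries and 3.14, 3.72 and 6.42 in CX3CR1+ libraries. The groups did not overlap, and CX3CR1- replicate 3 was highest. The means were 34.3 ± 20.2 and 4.43 ± 1.75 (SD, n = 3 each), a ratio of 7.75, and the log2 fold change was 2.60 with a standard error of 0.61. Of the 4 lymphatic genes, 3 were thus higher and 1 was lower in CX3CR1- libraries.

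Of the blood endothelial receptors, Kdr had the steadier values. Kdr (chr5:75932827-75978458, minus strand), which encodes VEGFR-2, the main receptor of VEGF-A, was 65.5, 65.7 and 62.5 in CX3CR1- and 12.3, 7.92 and 10.7 in CX3CR1+ libraries. The means of 64.6 ± 1.82 and 10.3 ± 2.24 (SD, n = 3 each) gave a ratio of 6.25 and a log2 fold change of 2.55 (standard error 0.39). The CX3CR1- libraries were almost equal in Kdr, although they differed in Lyve1, Flt4 and Pdpn.

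Tek (chr4:94739289-94874976, plus strand) encodes TIE2, the receptor of the angiopoietins. It was 73.0, 33.2 and 36.7 in CX3CR1- libraries and 0.452, 0.802 and 1.27 in CX3CR1+ libraries, where each value stood for about 1 read. About 125 reads stood against 3 in all, a ratio of 67.6 with an exact 95% interval from 22.6 to 332 for counting error only. The log2 fold change of 4.66 (standard error 0.66) was the highest of the 9 tested genes and was 2.35 with a pseudocount of 10. At this depth Tek was not measurable in single CX3CR1+ libraries.

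Vwf (chr6:125546774-125686679, plus strand) encodes the clotting glycoprotein that endothelial cells and megakaryocytes make. It was 103, 91.8 and 75.7 in CX3CR1- and 26.5, 12.8 and 28.5 in CX3CR1+ libraries. The groups were well apart, at means of 90.2 ± 13.8 and 22.6 ± 8.52 (SD, n = 3 each), a ratio of 3.99. Its log2 fold change was 2.02 with a standard error of 0.39.

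Plvap (chr8:71497765-71511752, minus strand) encodes the protein of the diaphragms in fenestrae and caveolae of blood endothelium. It was 8.35, 3.58 and 6.98 in CX3CR1- libraries and 1.39, 0.820 and 0 in CX3CR1+ libraries. These stood for about 8, 2 and 7 reads and about 3, 1 and 0 reads. The pooled ratio was 6.89 with an exact 95% interval from 2.25 to 28.2 for counting error only. The groups did not overlap, but 4 of the 6 libraries held 3 reads or fewer. In the fit without a filter on low values its log2 fold change was 2.10, and it was not called.

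Pecam1 and Eng did not separate the populations. Pecam1 (chr11:106654217-106750628, minus strand) encodes CD31, an adhesion molecule of endothelium that platelets and leukocytes also carry. It was 562, 456 and 648 in CX3CR1- and 284, 521 and 541 in CX3CR1+ libraries, with 2 of the CX3CR1+ libraries inside the CX3CR1- range. The log2 fold change was 0.35 with a standard error of 0.27. Eng (chr2:32646595-32682669, plus strand) encodes endoglin, a co-receptor for ligands of the TGF-beta family that is found on endothelium and on activated macrophages. It was 84.6, 132 and 173 in CX3CR1- and 107, 80.9 and 83.5 in CX3CR1+ libraries, and the log2 fold change was 0.47 with a standard error of 0.31. Eng overlaps in exon sequence with Fpgs on the opposite strand, so that reads from the shared stretch cannot be told apart. Only 0.751% of the 31-mers of Eng occur in another gene. Among all tested genes the groups did not overlap in 40.0%, with CX3CR1- higher in 20.3% and lower in 19.8%.

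To compare levels between genes, the normalized values were divided by the length of the longest coding transcript in kilobases. On this scale Lyve1 was the highest of the 10 genes in CX3CR1- libraries, at 194 ± 40.4 per kilobase, followed by Pecam1 at 161 ± 27.9 (SD, n = 3 each). These neighbours overlapped within their spread. Eng followed at 38.0 ± 12.99 and Pdpn at 18.9 ± 11.1, which also overlapped within their spread. Kdr at 10.9 ± 0.308, Tek at 10.2 ± 4.73 and Vwf at 10.2 ± 1.56 were alike within their SD. Flt4 at 4.97 ± 3.45, Plvap at 3.17 ± 1.24 and Prox1 at 2.15 ± 0.643 were the lowest, again with overlapping spreads. In CX3CR1+ libraries Pecam1 had the highest mean, at 130.4 ± 41.7 per kilobase, but its spread overlapped that of Lyve1 at 78.5 ± 27.2. Eng followed at 26.4 ± 4.18. Prox1 came next at 9.19 ± 2.29, and the other 6 genes were at 0.181 to 2.56 per kilobase. Prox1 thus moved from the lowest place of the set in CX3CR1- libraries to the fourth in CX3CR1+ libraries.

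**Figure D2:**
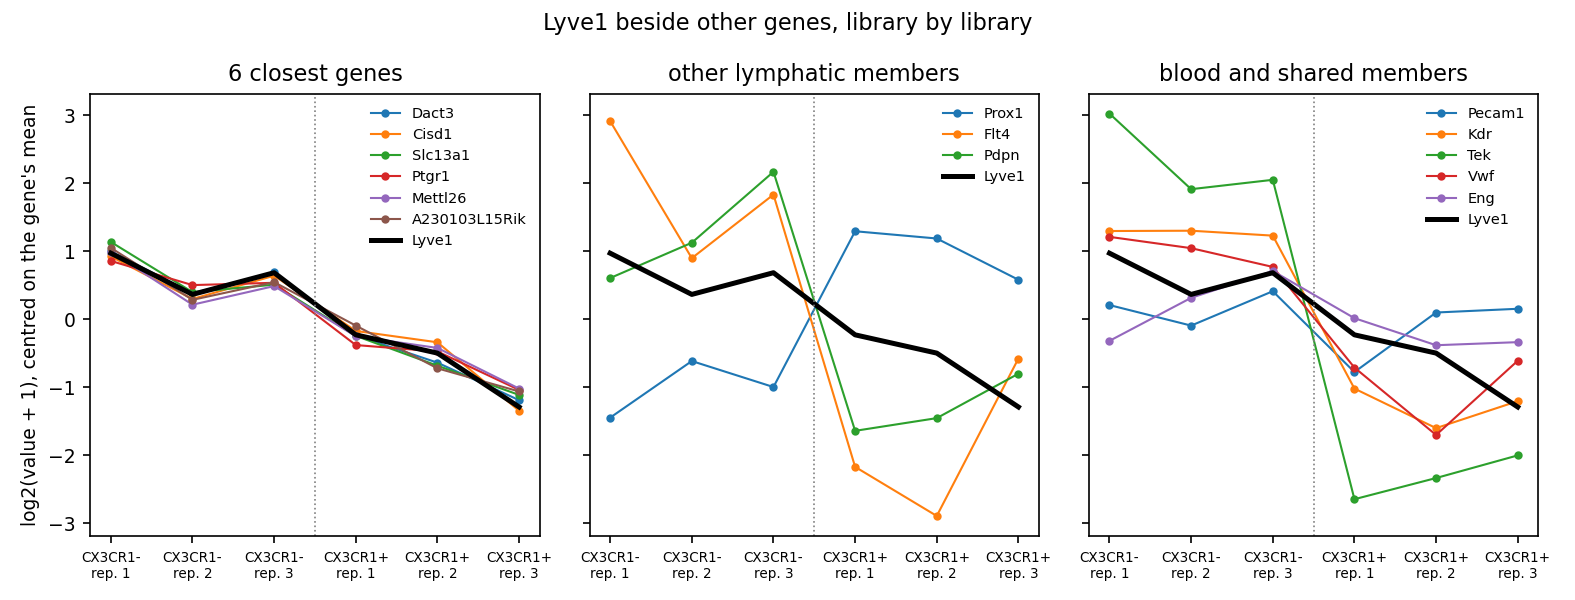
Log2(value + 1) centred on each gene's mean, by library. Each line joins the 6 libraries of 1 gene to show which gene it is, and the replicates have no order. The heavy line is Lyve1 in all panels. The 6 closest genes stay near it, Prox1 runs opposite to it, and Flt4 and Tek cover a wider range.

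The values of Lyve1 and of the lymphatic genes were not in a fixed ratio. Lyve1 divided by Prox1 was 56.5, 20.1 and 33.1 in CX3CR1- libraries and 3.43, 3.06 and 2.70 in CX3CR1+ libraries. The ratio was narrow within CX3CR1+ libraries, at 3.06 ± 0.362 (SD, n = 3), and wide in CX3CR1- libraries, at 36.6 ± 18.4 (SD, n = 3). Lyve1 divided by Pdpn went the other way, at 36.4, 16.4 and 9.75 in CX3CR1- and 93.9, 65.8 and 22.0 in CX3CR1+ libraries, with an overlap. Lyve1 divided by Kdr was also lower in CX3CR1- libraries, at 10.4, 6.79 and 8.92 against 23.9, 30.9 and 13.1. The other blood and shared genes did not all share this direction. Lyve1 divided by Vwf overlapped between the groups, at 4.86 to 7.36 and 4.95 to 19.1. Lyve1 divided by Pecam1 was 1.02 ± 0.178 in CX3CR1- and 0.590 ± 0.404 in CX3CR1+ libraries (SD, n = 3 each), with an overlap. Lyve1 divided by Eng was 4.88 ± 2.74 and 2.49 ± 0.709 (SD, n = 3 each), without an overlap. Ratios to Flt4, Tek and Plvap were not taken. Those that were taken therefore did not split into lymphatic and blood endothelial genes. Which replicate was highest also differed from gene to gene. Within the CX3CR1- group Lyve1, Flt4 and Tek were all highest in replicate 1 and lowest in replicate 2. So was Plvap, but only at about 8, 2 and 7 reads. Prox1 was highest in replicate 2 and Pdpn in replicate 3 of that group. Within the CX3CR1+ group Lyve1 and Prox1 were both highest in replicate 1 and lowest in replicate 3. Flt4, Pdpn and Tek stood for at most about 6.80 reads in each CX3CR1+ library, so their order there is not read.

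Likeness to Lyve1 was measured as the Euclidean distance between the log2(value + 1) profiles over the 6 libraries, each centred on its gene's mean. A small distance asks for a change of the same size as well as the same direction. The 6 closest of the tested genes were Dact3 at 0.18, Cisd1 at 0.20, Slc13a1 at 0.35, Ptgr1 at 0.37, Mettl26 at 0.38 and A230103L15Rik at 0.39. With a pseudocount of 10 only 1 of these 6 stayed among the 6 closest. Of the tested genes, 16.7% were closer to Lyve1 than Eng was and 17.0% closer than Vwf. The shares were 23.0% for Kdr, 29.1% for Pecam1 and 57.7% for Pdpn. Flt4, Tek and Prox1 were far away, with 89.6%, 92.3% and 92.4% of tested genes closer. The order depended on the pseudocount. With a pseudocount of 10 the share was 5.82% for Kdr, 9.03% for Vwf, 12.8% for Flt4, 17.7% for Pdpn, 21.1% for Tek, 21.8% for Eng and 36.6% for Pecam1. Prox1 was far away with either pseudocount, at 95.4% here.

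Further genes of lymphatic endothelium were listed to see whether Prox1 stood alone among them. Of 8 such genes 6 were in the table and 4 were tested, and 3 rose and 1 fell in CX3CR1- libraries. Over all tested genes 12.2% were called higher and 8.15% lower. Sox18, a transcription factor that acts upstream of Prox1 in the embryo, was 43.8, 34.0 and 15.0 in CX3CR1- libraries and 0 in every CX3CR1+ library. It was at least 11.5-fold higher, taking 3 reads in each CX3CR1+ library as the floor (adjusted p = 0.00209, limma with Benjamini-Hochberg adjustment, as for the genes below). Nr2f2, which encodes the venous and lymphatic factor COUP-TFII, rose by 1.78 ± 0.46 (log2 fold change ± standard error, adjusted p = 0.0175 by limma). Reln, which encodes the secreted protein reelin, rose by 3.19 ± 0.78 (adjusted p = 0.0139 by limma), and its CX3CR1+ values were 0.606, 4.32 and 0.573. Itga9, the integrin subunit of lymphatic valves that other cells also carry, fell by 3.35 on the log2 scale (standard error 0.26, adjusted p = 1.42e-05 by limma), from 1277 ± 109 to 129 ± 43.9 (SD, n = 3 each). Sox18 and Reln passed the mean of 10 only through the CX3CR1- libraries, so that their direction was fixed by the filter. Mmrn1 was 1.36, 9.45 and 2.60 in CX3CR1- and 0 in all CX3CR1+ libraries and was too low to test. Ccl21a and Foxc2 were not in the table. By distance, 9.37% of tested genes were closer to Lyve1 than Nr2f2 was, against 70.1% for Reln, 93.8% for Sox18 and 97.9% for Itga9. With a pseudocount of 10 these shares were 4.58%, 3.68%, 13.2% and 99.6%.

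Of 20 further genes of blood or of all endothelium, 16 were tested, and 11 rose and none fell by limma, also at an unadjusted p under 0.05. The shares over all tested genes were 12.2% called higher and 8.15% called lower. Of the 11, 8 had a CX3CR1+ mean under 10 and entered the fit only through the group where they were high, Cdh5 and Ptprb among them, so the count is given as a description. Cdh5, the adhesion molecule VE-cadherin that joins endothelial cells, was 193, 114 and 131 in CX3CR1- and 5.88, 4.01 and 11.1 in CX3CR1+ libraries. It rose by 4.26 ± 0.44 on the log2 scale (adjusted p = 8.31e-05 by limma). Ptprb, the endothelial phosphatase VE-PTP that acts on TIE2, was 506, 269 and 164 against 8.19, 11.3 and 0 and rose by 5.87 ± 0.85 (adjusted p = 6.81e-04 by limma). Flt1, which encodes VEGFR-1 and is also found on monocytes, rose by 1.85 ± 0.34 (adjusted p = 0.00283 by limma), and Cd34, a sialomucin of endothelium, fibroblasts and progenitors, rose by 2.43 ± 0.37 (adjusted p = 9.76e-04 by limma). S1pr1, the sphingosine 1-phosphate receptor that lymphocytes share, differed by -0.47 ± 0.28 on the log2 scale (adjusted p = 0.269 by limma). Cldn5, the tight junction claudin of endothelium, was 2.09, 12.5 and 1.99 against 0, 1.64 and 0 and was too low to test. The share of tested genes closer to Lyve1 was 10.9% for Flt1, 44.5% for Cd34, 55.0% for S1pr1, 89.6% for Cdh5 and 98.1% for Ptprb. With a pseudocount of 10 it was 9.10%, 38.0%, 64.7%, 76.9% and 95.7%, in the same order of genes.

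**Figure D3:**
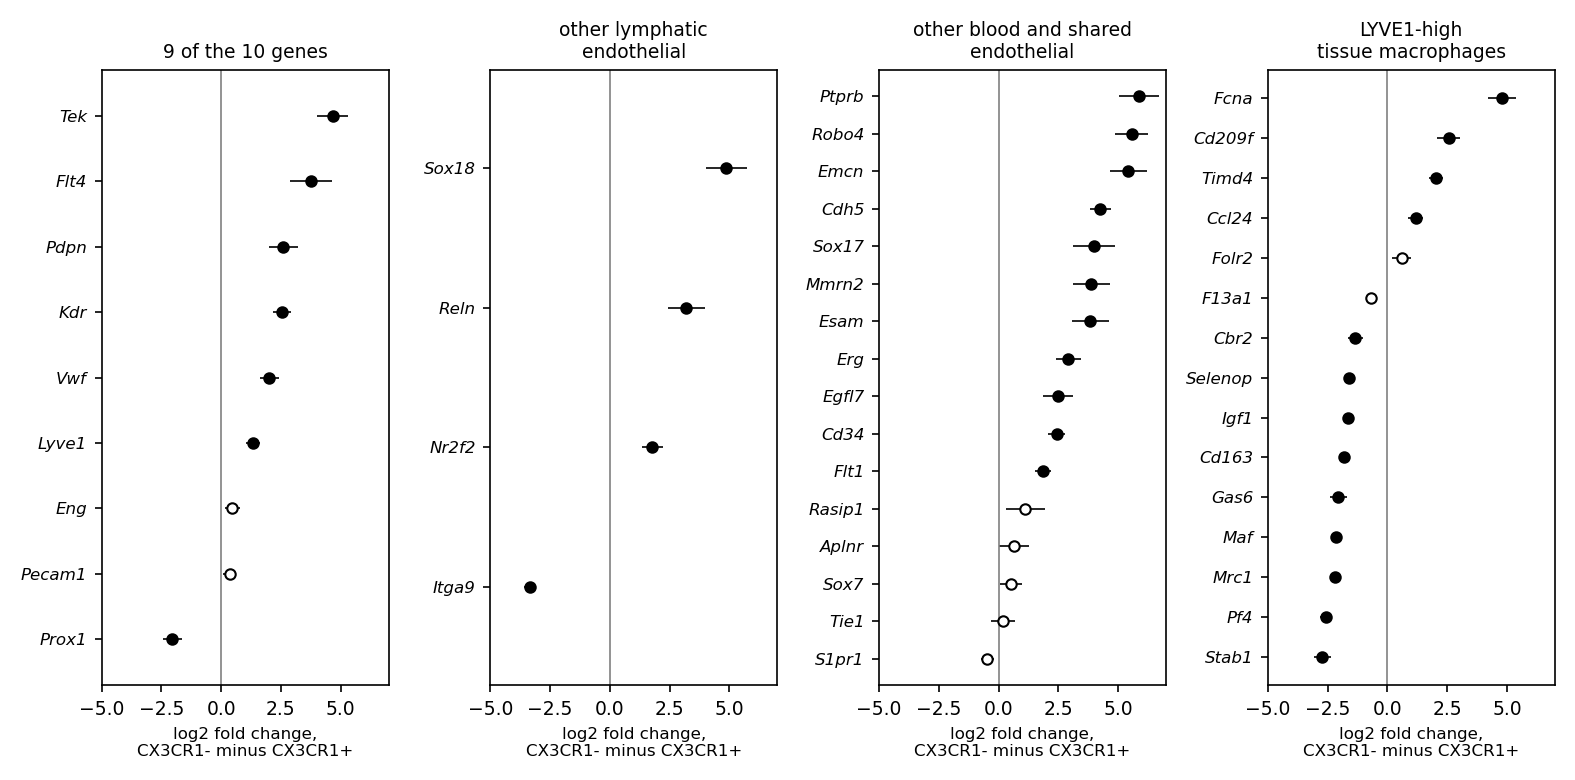
Log2 fold change (CX3CR1- minus CX3CR1+) with its standard error from limma, for 9 of the 10 genes and for 3 further lists. Filled points passed the call rule and open points did not. Prox1 and Itga9 lie on the negative side of panels whose other points are mostly positive, and the genes of LYVE1-high macrophages lie on both sides.

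The ligands and co-receptors of VEGFR-2, VEGFR-3, TIE2, endoglin and podoplanin held changes in both directions. Of 12 listed genes 9 were tested, and 1 rose and 2 fell, where 20.4% of all tested genes were called. Nrp1, a neuropilin that assists VEGFR-2 and is found on many myeloid cells, fell by 1.49 on the log2 scale (standard error 0.19, adjusted p = 3.68e-04 by limma), with means of 441 and 1218. Nrp2, the neuropilin that assists VEGFR-3, differed by 0.10 ± 0.23 on the log2 scale (adjusted p = 0.789 by limma). The ligand Vegfa had -0.28 ± 0.29 (adjusted p = 0.551 by limma), and Acvrl1, the receptor ALK1 that acts with endoglin, had 0.07 ± 0.28 (adjusted p = 0.879 by limma). Vegfc, the ligand of VEGFR-3, was 9.95, 5.68 and 2.28 in CX3CR1- and 2.11, 2.61 and 0.810 in CX3CR1+ libraries and was not tested. The other genes that passed, named after their values were seen, were Ccbe1 and Vegfb. Ccbe1, which helps to process VEGF-C, rose by 2.01 ± 0.41 (adjusted p = 0.00553 by limma). Vegfb fell by 1.68 on the log2 scale (standard error 0.38, adjusted p = 0.00950 by limma). By distance, 2.90% of tested genes were closer to Lyve1 than Ccbe1 was, and 0.545% with a pseudocount of 10. For Vegfb these shares were 89.7% and 94.6%.

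Genes of hyaluronan, the ligand of LYVE1, were looked at in the same way. Of 10 listed genes 7 were tested, and 1 rose and 1 fell, where 20.4% of all tested genes were called. Cd44, the other main hyaluronan receptor, was 2311 and 2001 on average, a log2 difference of 0.20 ± 0.16 (adjusted p = 0.439 by limma). Stab1, a scavenger receptor of macrophages and sinusoidal endothelium, fell by 2.73 on the log2 scale (standard error 0.35, adjusted p = 3.31e-04 by limma). Hmmr, an intracellular hyaluronan binder, differed by 0.26 ± 0.28 (adjusted p = 0.551 by limma), and the synthase Has3 by 0.40 ± 0.79 (adjusted p = 0.764 by limma). Has1, another synthase, named after its values were seen, rose by 2.96 ± 0.75 (adjusted p = 0.0162 by limma) from CX3CR1+ values of 0.925 to 3.28. Has1 passed the mean of 10 only through the CX3CR1- libraries, so that its direction was fixed by the filter.

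Since LYVE1 is also carried by a class of tissue macrophages, 15 genes known from those cells were set beside it. All 15 were tested, and 4 rose, 9 fell and 2 were not called, where 12.2% of all tested genes were called higher and 8.15% lower. The median log2 fold change was -1.58, opposite in sign to that of Lyve1. Mrc1, the mannose receptor CD206, fell by 2.18 on the log2 scale (standard error 0.14, adjusted p = 5.62e-06 by limma), with means of 3438 and 15482. Cd163, the haemoglobin scavenger receptor, fell by 1.82 (standard error 0.16, adjusted p = 3.37e-05 by limma), Maf by 2.13 (standard error 0.15, adjusted p = 9.82e-06) and Selenop by 1.58 (standard error 0.13, adjusted p = 2.18e-05). Timd4, the phosphatidylserine receptor TIM4 of long-lived macrophages, rose by 2.04 ± 0.29 (adjusted p = 6.81e-04 by limma) and was 363, 629 and 810 in CX3CR1- and 161, 125 and 132 in CX3CR1+ libraries. Folr2 differed by 0.60 ± 0.39 (adjusted p = 0.309 by limma). The other genes that rose, named after their values were seen, were Fcna at 4.79 ± 0.60, Cd209f at 2.56 ± 0.47 and Ccl24 at 1.18 ± 0.31 (adjusted p = 2.82e-04, 0.00283 and 0.0184 by limma). Fcna passed the mean of 10 only through the CX3CR1- libraries, so that its direction was fixed by the filter. Lyve1 divided by Mrc1 was 0.121 to 0.232 in CX3CR1- and 0.00935 to 0.0191 in CX3CR1+ libraries. Lyve1 divided by Timd4 overlapped between the groups, at 0.688 to 1.87 and 1.07 to 1.96. By distance, 15.3% of tested genes were closer to Lyve1 than Timd4 was, and 93.3% were closer than Mrc1. Ccl24 was closer than either, with 0.511% of tested genes closer, and 1.07% with a pseudocount of 10.

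**Figure D4:**
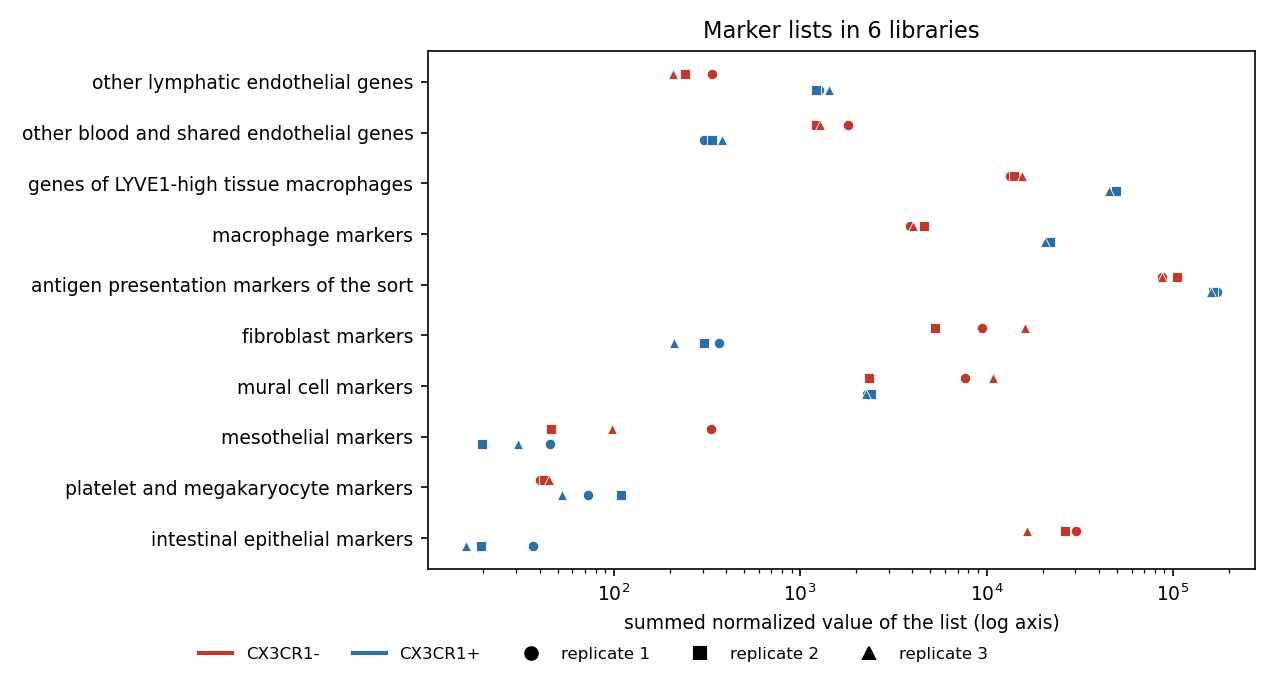
Summed normalized value of each marker list on a log axis, in the 6 libraries. Symbols are single libraries. The sums of intestinal epithelial markers lie at 16502 to 30128 in CX3CR1- and at 16.03 to 37.1 in CX3CR1+ libraries, and those of macrophage markers lie lower in CX3CR1- libraries.

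Markers of other cell types also moved with the groups. All 8 fibroblast markers, among them Dcn, Dpt, Pdgfra and Lum, rose, with sums of 5279.6 to 16043 in CX3CR1- and 210.2 to 366 in CX3CR1+ libraries. All 6 intestinal epithelial markers rose, among them Fabp1, Krt20, Vil1 and Fabp2, the last with means of 18240.0 and 4.30. Mural cell markers, those of pericytes and smooth muscle, rose in 5 of 8, and the lowest CX3CR1- sum of 2354 lay inside the CX3CR1+ range of 2249.7 to 2399. Of these, Rgs5 and Abcc9 rose, and Acta2 and Myh11 were not called. Of 6 mesothelial markers 4 were tested, and Wt1 rose while Upk3b, Gpm6a and Lrrn4 were not called, with sums of 46.0 to 332 and 19.6 to 45.4. Of 7 platelet and megakaryocyte markers 5 were in the table and 3 were tested, and Gp6 and Ppbp fell, Gp1ba was not called and Itga2b was among those not tested, with sums of 40.3 to 44.9 and 53.1 to 109.96. No marker of these lists in the table was at 0 in all libraries of a group. Of the genes called higher, 5 of the 6 epithelial, 3 of the 5 mural, 1 of the 8 fibroblast genes and Wt1 had a CX3CR1+ mean under 10. They entered the fit only through the group where they were high, so that their direction was fixed by the filter. The same holds for the fall of Ppbp, which passed the mean of 10 only through the CX3CR1+ libraries, at means of 2.87 and 21.0. For comparison, 12.2% of all tested genes were called higher and 8.15% lower. All 7 macrophage markers fell, among them Csf1r, Cd68, Adgre1 and C1qa, with sums of 3863 to 4594 and 20508 to 22019. The list and its sums include Cx3cr1, the gene behind the sort, whose fall is no separate result. Of the antigen presentation genes of the sort, H2-Aa fell by 1.003 on the log2 scale, and H2-Ab1 and Cd74 were 23976 and 46166 on average in CX3CR1- against 37258 and 82766 in CX3CR1+ libraries.

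Within the CX3CR1- group, Lyve1, Flt4 and Tek were highest in replicate 1 and lowest in replicate 2. This was also the order of the mesothelial sum and of the further blood endothelial sum, at 1806, 1217 and 1280.4. Pecam1 was highest in replicate 3 and lowest in replicate 2, as were the fibroblast and mural sums. Vwf was highest in replicate 1 and lowest in replicate 3, as was the epithelial sum. Pdpn and Eng were highest in replicate 3 and lowest in replicate 1, as was Cd34. Prox1 was highest in replicate 2, as was the macrophage sum. In the CX3CR1+ group Lyve1 was 295, 245 and 141, and the further blood endothelial sum went the other way, at 304, 337 and 379. Sums of the fibroblast, epithelial, macrophage, LYVE1-high macrophage, hyaluronan and antigen presentation lists kept the order of Lyve1 there. Those of the further lymphatic, mesothelial, mural, platelet and ligand lists did not. What part these other cells had in the levels of Lyve1, of the lymphatic genes or of the blood endothelial genes was not tested.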

How the data were processed

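Bulk RNA of 3 MHCIIhi CX3CR1- and 3 MHCIIhi CX3CR1+ libraries was analysed, with groups taken from the sample titles. The authors pseudoaligned single reads to the mm10 transcriptome (GENCODE release M16) with kallisto, used tximport to sum estimated counts per gene, and applied DESeq2 normalization. What they deposited is this normalized signal, not counts. Of the values above 0 in a library, 42.6 to 44.7% were whole multiples of its smallest step (tolerance 0.01 reads), so no count test was run. The step gave the approximate reads per library.

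The 17812 genes whose mean over all 6 libraries reached 10 entered a two-sided limma fit (limma 3.58.1 under R 4.3.3, moderated with a variance trend). The fit used log2(value + 1), and p-values were adjusted by the Benjamini-Hochberg method across all of them. The test was checked on simulated data, in which only genes well above the mean of 10 were changed. This check therefore does not cover low genes such as Flt4 and Tek. Fold changes on this scale understate the change of low genes. Of the symbols, 23 occur more than once. Lengths came from GENCODE release M21 for GRCm38, and at most 2.50% of the 31-mers of any of the 10 genes were shared with another gene. Plots were drawn with matplotlib 3.10.9.

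The 10 genes and all lists were chosen with earlier results of these data known. Beside them, the genes named are the 6 closest to Lyve1, the 4 with the highest mean in each list, and Cdh5, Cldn5, Flt1, Mmrn1, Ccl21a, Mrc1, Folr2, Timd4, Cd163, Cd44, Vegfa and Vegfc. Cx3cr1 is named as the gene of the sort, and others are said to be named after their values were seen. Alternatives were pseudocounts of 0.5 and 10, no filter, a mean of at least 50, quantile normalization, median-of-ratios rescaling, no variance trend, library quality weights and leaving out each library.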

Additional observations from a re-analysis of the deposited data

How the results depend on the processing

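Direction and call of the 9 tested genes of the set were kept under every alternative in which a gene was tested. With a mean of at least 50, fewer genes were tested (10208), and 1232 were called higher, against 2177. Of the set, 2 were then called higher, against 6, and 0 lower, against 1, since Prox1 itself fell under that mean, and of the other listed genes 24 were called higher, against 40. Leaving out 1 library gave 1724 to 2263 genes called higher and 1011 to 1606 lower, with 5 to 6 of the set called higher. The 5 came without CX3CR1- replicate 1, where Flt4 fell under the mean of 10. With a pseudocount of 10, 1 of the 6 genes closest to Lyve1 was shared. Quantile normalization shifted the median over all genes to -0.15 on the log2 scale and the share of calls that were higher from 60.0% to 50.6%, and under it 6 genes of the set were still called higher and 1 lower. The labels give no pairing. Library numbers in the titles are adjacent across the groups, and a replicate block on adjacent libraries, added after the data had been seen, gave 2165 genes higher and 1445 lower, with 6 and 1 of the set. The deviations of adjacent libraries from their group means correlated at 0.0142 to 0.104 across genes, and genes are not independent replicates. Depth limited Flt4, Tek and Plvap, which had 3 reads or fewer in each CX3CR1+ library.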
